A study of Saccharomyces cerevisiae with 8 samples.

Results

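In polyadenylated RNA of 4 yeast strains, 9 genes of the cell wall, chosen by name, were followed: the glucan synthase genes GSC2 and FKS1, the cell wall integrity genes SLT2 and RLM1, and the wall protein and enzyme genes CRH1, PST1, CWP1, PIR3 and SED1. All 9 of the 9 were found by symbol among 9014 features of the count table, and all 9 were among the 7543 features that passed the filter on low counts. The libraries came from budding yeast of the BY4742 background (mating type alpha with the his3D1, leu2D0, lys2D0 and ura3D0 alleles, which every strain carries), with 2 libraries per strain. The wild type (WT) has no further change. The rrp6 strain carries rrp6::LEU2, the air1 rrp6 strain carries rrp6::LEU2 and air1::bleR, and the air2 rrp6 strain carries rrp6::LEU2 and air2::bleR. No strain lacks AIR1 or AIR2 while keeping RRP6. Cultures were started from a colony and kept at 30 °C in YPD, a rich medium with glucose, until the optical density reached about 2.5. Whether the duplicates were separate cultures is not in the labels, so the spread behind each p-value is that of these libraries and may be technical. RRP6 encodes an exonuclease of the exosome in the nucleus. AIR1 and AIR2 encode RNA-binding proteins of TRAMP, a complex that tags nuclear RNAs for decay, and the study asks how each of these proteins shapes the choice of RNAs.

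The yeast cell wall is a layer of beta-glucan, a little chitin and mannoproteins. Its main glucan is made at the plasma membrane by a synthase with Fks1 or its paralog Gsc2 (also called Fks2) as the catalytic subunit and the GTPase Rho1 as regulator. FKS1 is the main gene of growing cells, and GSC2 is known to be induced by wall stress, by calcium signalling through calcineurin and Crz1, and when glucose runs low. In the cell wall integrity pathway, membrane sensors act through Rho1 and the kinase Pkc1 on a kinase cascade that ends in the MAP kinase Slt2, which activates the transcription factors Rlm1 and Swi4. CRH1, PST1, CWP1, PIR3 and SED1 encode wall proteins whose transcripts are known to rise with this pathway.

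A loose form of the known Rlm1 binding motif was searched for, the letters CTA and TAG with any 4 bases between them. The search covered both strands of the 1000 bases before the coding start in the R64 reference genome of RefSeq. The pattern reads the same on either strand. It was found once or more before 6 of the 9 genes, and before 16.9% of 5996 protein-coding genes with a full window. The sites are shown because GSC2 shares this loose pattern with most of the wall protein genes that are followed beside it. Each is printed on the strand of its gene, 5′ to 3′, with the motif in capitals.
GSC2, chrVII:547920-547945, plus strand: ctggtgtgCTAAGAATAGagtttcat
RLM1, chrXVI:381441-381466, minus strand: gatgaaagCTAATAATAGaaacagct
PST1, chrIV:563214-563239, plus strand: acgagtctCTAAAAATAGcgtaggca
CWP1, chrXI:260738-260763, plus strand: cgtcataaCTAAAAATAGcgttagcc
PIR3, chrXI:144113-144138, plus strand: ttagcaaaCTAATTATAGatcaaagg
SED1, chrIV:600305-600330, plus strand: atatatcgCTAAAATTAGccatcaga
The motif began 336 bases before the coding start of GSC2 and between 280 and 480 bases before it in the other 5 genes. The 4 middle bases were all A or T in the other 5 genes and held a G in GSC2. The GSC2 site is therefore found only because any base was allowed there. A match is a description of the letters and not evidence of binding. A Swi4 motif (CNCGAAA, both strands) lay before 6 of the 9 genes, GSC2, FKS1, SLT2, CRH1, CWP1 and SED1, and before 34.2% of all genes. A stress response motif (AGGGG, both strands) lay before 4 of the 9, SLT2, CWP1, PIR3 and SED1, and before 55% of all genes. A motif linked to Crz1 (GNGGCTG, both strands) lay before GSC2, CRH1 and SED1 and before 20.6% of all genes, and for GSC2 it read as follows.
GSC2, chrVII:547502-547524, plus strand: accagtcgGTGGCTGtgcgcttg

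Depth and labels were checked first. Total counts ran from 13787609 to 124620247 per library, of which features of the ribosomal DNA took 51.7 to 82.3%, and both extremes of the total belonged to WT. Counts outside those features ran from 4565468 to 22041136. The 6 libraries labelled as lacking RRP6 held 19 to 51 counts of it, against 377 and 2131 in WT, and AIR1 and AIR2 were at their lowest in the libraries labelled as lacking them. For LEU2 both WT libraries were at 0 counts and the others at 219 to 559, so in each comparison with WT the loss of RRP6 cannot be told apart from the presence of the LEU2 marker. Levels are given as CPM, counts scaled to a common library size with edgeR's TMM factors, and a gene was called where edgeR's quasi-likelihood test gave an adjusted p under 0.05 over all 7543 features.

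GSC2 was the member that differed most between strains. WT had 36.5 and 24.1 CPM, rrp6 had 62.8 and 48.4 CPM, air1 rrp6 had 35.2 and 30.3 CPM, and air2 rrp6 had 97.5 and 89.6 CPM. Both air2 rrp6 libraries lay above all other libraries, both rrp6 libraries lay above those of WT and air1 rrp6, and the air1 rrp6 libraries lay inside the range of WT. The order of the mean levels was WT (30.3 ± 8.8 CPM, SD, n = 2), air1 rrp6 (32.8 ± 3.5), rrp6 (55.6 ± 10.1) and air2 rrp6 (93.6 ± 5.6). In RNA from a whole culture, a larger share of cells that express a gene cannot be told apart from more RNA of it per cell.

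**Figure D1:**
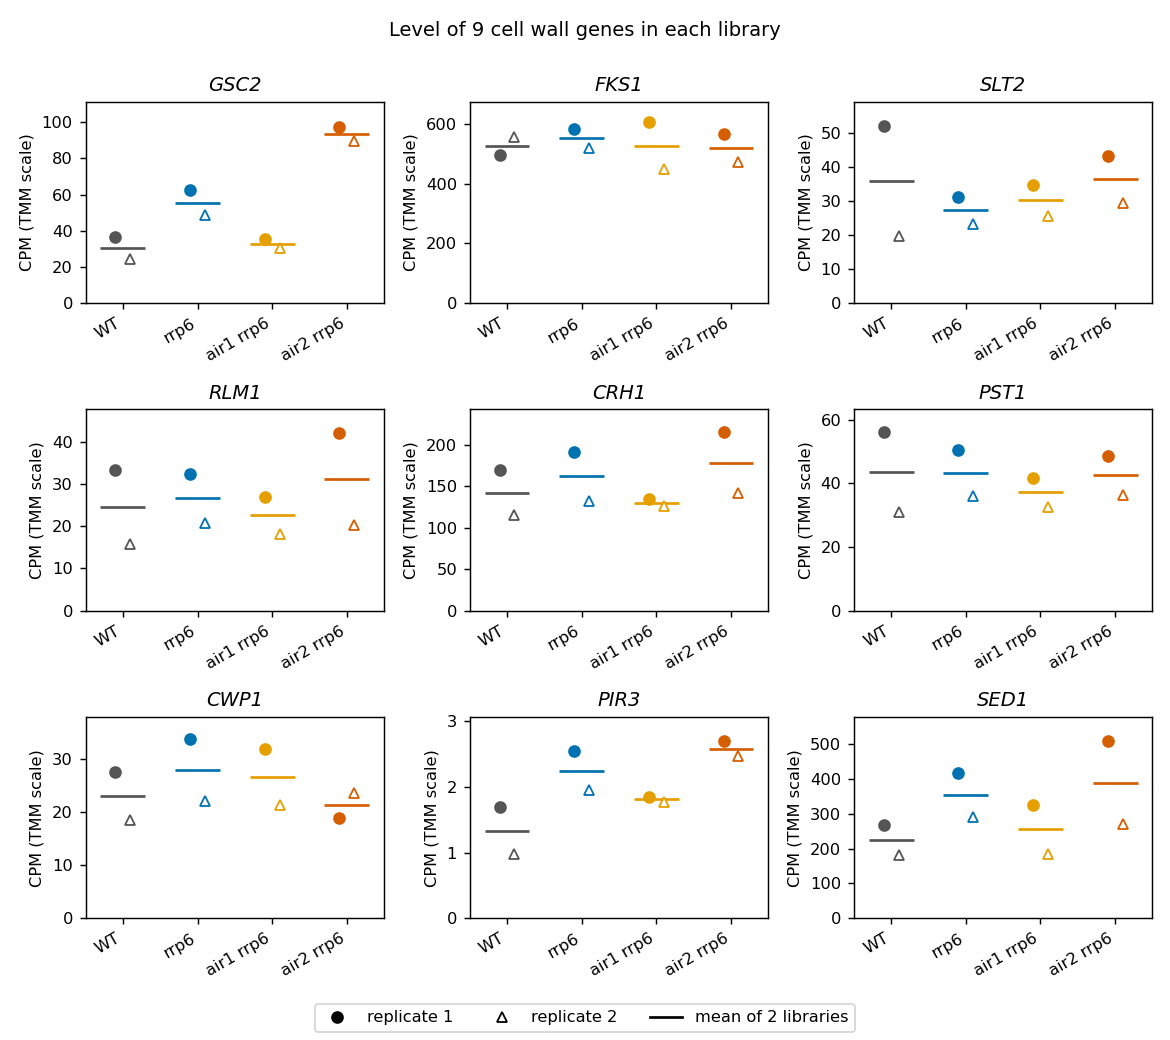
Level of each of the 9 genes in each library, in CPM on the TMM scale with the axis from 0; filled circles are replicate 1, open triangles replicate 2, and lines the mean of 2 libraries. GSC2 is highest in both air2 rrp6 libraries (97.5 and 89.6 CPM) and near the WT level in air1 rrp6, while the libraries of FKS1, SLT2, RLM1, PST1 and CWP1 overlap between all strains.

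GSC2 rose in air2 rrp6 against WT. The fold change was 3.10, a log2 fold change of 1.63 (SE 0.25, 95% interval 1.08 to 2.18, adjusted p = 0.0036 by edgeR's quasi-likelihood test). It was the only one of the 9 members called higher, and none was called lower. Among all features 8.75% were called higher and 1.54% lower, and among protein-coding features 1.77% were higher and 1.89% lower. With the 2 libraries of the same replicate number set against each other, the fold was 2.67 for replicate 1 and 3.72 for replicate 2. The share of ribosomal DNA moved with the strains, at 74.6% ± 10.9 (SD, n = 2) in WT and 56.1% ± 1.4 in air2 rrp6, and with this share as a covariate the log2 fold change was 1.42 and the call ended (adjusted p = 0.085 by edgeR). The part of this share in the result was not tested beyond that fit. The call held in the other 16 of 17 alternative settings, and the 17 values lay between 1.31 and 2.45.

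GSC2 also rose in rrp6 against WT, close to the threshold. The fold change was 1.84, a log2 fold change of 0.88 (SE 0.24, 95% interval 0.34 to 1.42, adjusted p = 0.048 by edgeR). It was again the only member called, where 8.80% of all features were called higher and 1.29% lower, and 1.44% and 1.65% of protein-coding features. This call ended in 9 of 17 alternative settings. Among these, leaving out WT replicate 2, the deepest library, lowered the log2 fold change to 0.58, and leaving out rrp6 replicate 1 lowered it to 0.68 (adjusted p = 0.24 and 0.22 by edgeR). Leaving out any one of the 4 double mutant libraries ended it at 0.83 to 0.88, and the replicate block kept it (0.89, adjusted p = 0.0088).

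In air1 rrp6 against WT no call was made for GSC2. Its log2 fold change was 0.12 (95% interval -0.42 to 0.66, adjusted p = 0.86 by edgeR), so a fold above 1.58 lay outside the interval. None of the 9 members was called in this comparison by edgeR, with 0 at an unadjusted p under 0.05 and 0 by DESeq2. Of all features 7.64% were called higher and 0.756% lower, and of protein-coding features 1.22% and 0.892%.

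The double mutants were then compared with rrp6, which carries the same LEU2 marker, and with each other. Both double mutants also carry bleR, and rrp6 does not. In each comparison with rrp6 the loss of AIR1 or AIR2 therefore cannot be told apart from the presence of the bleR marker. In air2 rrp6 against rrp6, GSC2 had a fold of 1.68 (log2 fold change 0.75, SE 0.24, unadjusted p = 0.011 in the edgeR fit, adjusted p = 1). In air1 rrp6 against rrp6 it had a fold of 0.59 (log2 fold change -0.76, SE 0.24, unadjusted p = 0.010 in the edgeR fit, adjusted p = 0.78). Neither passed the threshold. In each case the libraries did not overlap, which with 2 libraries per strain carries little weight. No feature was called higher in either comparison, and the shares called lower were 0.0133% in air2 rrp6 and 0.0663% in air1 rrp6. Of the members, GSC2 was the 1 with an unadjusted p under 0.05 in each, and DESeq2 called 0 in both. Of all 7543 features, 201 had an edgeR p under 0.05 before adjustment in air2 rrp6 against rrp6, and 429 in air1 rrp6 against rrp6.

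The direct comparison of air1 rrp6 with air2 rrp6 gave the largest difference of GSC2 after that between air2 rrp6 and WT. Its level in air1 rrp6 was 0.35 of that in air2 rrp6, a log2 fold change of -1.52 (SE 0.24, 95% interval -2.06 to -0.97, unadjusted p = 0.000118, adjusted p = 0.081 by edgeR). By p it ranked 6 among 5832 protein-coding features, of which 1 was called lower (0.0171%), while 0.0663% of all features were called lower. The within-replicate folds were 0.361 and 0.338. The reported fit did not call it, and 3 alternatives did: the replicate block (log2 fold change -1.52, adjusted p = 0.0053), the 2 strains fitted alone (-1.50, adjusted p = 0.024) and DESeq2 (-1.53, adjusted p = 0.00012). The 17 alternatives gave values between -1.71 and -1.41. No other member had an unadjusted p under 0.05 here.

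FKS1, the paralog, was called in none of the 6 comparisons. WT had 494 and 557 CPM, rrp6 583 and 519, air1 rrp6 604 and 447, and air2 rrp6 567 and 473. The strains overlapped throughout. The log2 fold changes of FKS1 in the 6 comparisons lay between -0.08 and 0.07, and in air2 rrp6 against WT the value was -0.02 with a 95% interval of -0.57 to 0.54 (adjusted p = 0.98 by edgeR). The interval still allows a fold of up to 1.45.

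Per kilobase of coding length, FKS1 was the more abundant paralog in every library. GSC2 had 7.32 and 4.29 reads per 100 FKS1 reads in the WT libraries, after correction for their lengths of 5688 and 5631 bases. rrp6 had 10.7 and 9.24, air1 rrp6 had 5.77 and 6.70, and air2 rrp6 had 17.0 and 18.8. The air2 rrp6 ratios lay above all others, and those of air1 rrp6 lay between the WT libraries. The ratio uses no scaling between libraries, and no test was run on it.

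**Figure D2:**
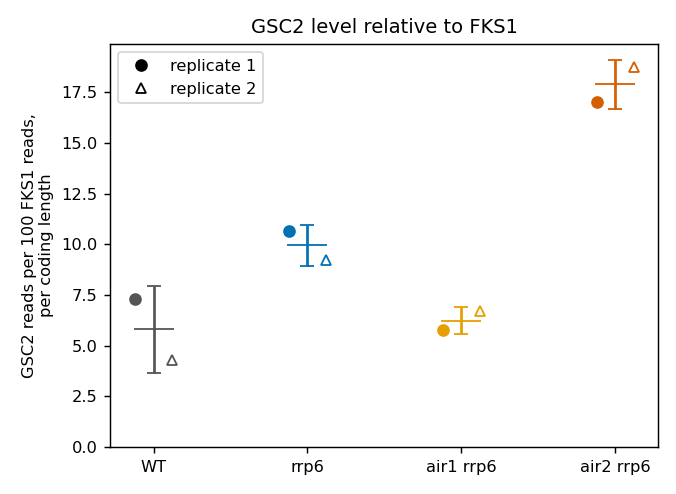
GSC2 reads per 100 FKS1 reads, each per coding length, by strain; filled circles are replicate 1, open triangles replicate 2, and bars the mean ± SD of 2 libraries. The mean ratio was 5.80 for WT, 9.94 for rrp6, 6.24 for air1 rrp6 and 17.9 for air2 rrp6.

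Both genes held counts that were not whole in each library but air1 rrp6 replicate 2, so some reads may have been shared between features. In the reference genome the coding sequences of GSC2 and FKS1 were 80.5% identical over 5610 aligned bases. The longest run they share exactly is 38 bases, at chrVII:550715-550752 in GSC2 and chrXII:812391-812428 in FKS1, both on the plus strand, and it is shown because a read lying wholly within it cannot be assigned to one of the genes.
Shared run of GSC2 and FKS1: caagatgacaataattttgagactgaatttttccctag
Of the words of 35 bases in GSC2, 0.159% occur elsewhere in the genome, and of the words of 50 bases, 0%. Read length and allowed mismatches are not stated in the labels. No gene of the RefSeq annotation overlaps any of the 9 members.

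SLT2 and RLM1, at the end of the signalling pathway, showed no call. SLT2, the MAP kinase gene, stood at 52.2 and 19.8 CPM in WT, 31.3 and 23.2 with RRP6 deleted alone, 34.7 and 25.7 with RRP6 and AIR1 deleted, and 43.3 and 29.4 with RRP6 and AIR2 deleted. The WT libraries spanned those of every other strain. Its log2 fold changes in the 6 comparisons ran from -0.39 to 0.42, with SEs near 0.42. RLM1, which encodes the transcription factor that Slt2 activates, stood at 33.2 and 15.9 CPM in WT, 32.3 and 20.8 with RRP6 deleted alone, 26.8 and 18.2 with RRP6 and AIR1 deleted, and 42.0 and 20.2 with RRP6 and AIR2 deleted. Its strains overlapped too, and its log2 fold changes ran from -0.47 to 0.36 (adjusted p from 0.71 to 1 by edgeR). With this spread the 95% interval for RLM1 in air2 rrp6 against WT reached from a fold of 0.63 to 2.60.

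SED1 and PIR3 had the largest differences from WT after GSC2 in rrp6 and in air2 rrp6. SED1, an abundant wall protein with a lipid anchor that is known for stationary phase cells, stood at 268 and 181 CPM in WT, 418 and 291 with RRP6 deleted alone, 325 and 185 with RRP6 and AIR1 deleted, and 508 and 271 with RRP6 and AIR2 deleted. Both libraries of rrp6 and of air2 rrp6 lay above those of WT, and those of air1 rrp6 overlapped with WT. Its log2 fold change against WT was 0.66 in rrp6 and 0.80 in air2 rrp6 (adjusted p = 0.35 and 0.27 by edgeR), and neither passed the threshold. In air2 rrp6 the replicate block gave 0.76 with a call (adjusted p = 0.032), and leaving out air2 rrp6 replicate 1 gave 0.27 (adjusted p = 0.87).

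PIR3, a wall protein bound to glucan through its repeats, was the lowest of the 9. It stood at 1.69 and 0.971 CPM in WT, 2.54 and 1.95 with RRP6 deleted alone, 1.85 and 1.77 with RRP6 and AIR1 deleted, and 2.69 and 2.46 with RRP6 and AIR2 deleted, and all 6 libraries without RRP6 lay above both WT libraries. These levels rest on 21.4 to 102 counts per library. The log2 fold change against WT was 0.83 for rrp6, 0.51 for air1 rrp6 and 1.03 for air2 rrp6 (adjusted p = 0.26, 0.58 and 0.17 by edgeR), and none was called. Leaving out WT replicate 2 gave 0.56 in air2 rrp6. Of the words of 35 bases in PIR3, 18.8% occur more than once in the genome, repeats within the gene included. Its counts were not whole in any library, so they are uncertain. For SED1 this share was 13.2%, though its counts were whole in every library. Both genes encode repeats. With library totals in place of TMM, SED1 and PIR3 were both called higher in air2 rrp6 (log2 fold change 1.61 and 1.87, adjusted p = 0.039 and 0.046), while that scaling also put the median over all features at 0.95.

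CRH1, PST1 and CWP1 made no call in any of the 6 comparisons. CRH1, which encodes an enzyme that links chitin to glucan, had means of 142 ± 38 CPM for WT, 162 ± 42 for rrp6, 130 ± 6.5 for air1 rrp6 and 179 ± 52 for air2 rrp6 (SD, n = 2), and its libraries overlapped in each pair of strains except the double mutants. PST1, a wall protein gene used as a marker of wall stress, stood between 30.9 and 56.2 CPM, both ends being WT libraries. Its mean differed little between strains, from 37.1 CPM in air1 rrp6 to 43.6 CPM in WT. CWP1, a wall mannoprotein gene, had its lowest mean in air2 rrp6, where it stood at 19.0 and 23.5 CPM against 27.5 and 18.5 CPM in WT. Its log2 fold change in air2 rrp6 against WT was -0.11 (95% interval -0.78 to 0.56), opposite in sign to that of GSC2. PST1 and CWP1 hold the same letters at the Rlm1 motif, and neither was called. Any tie between the motif and these levels was not tested.

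**Figure D3:**
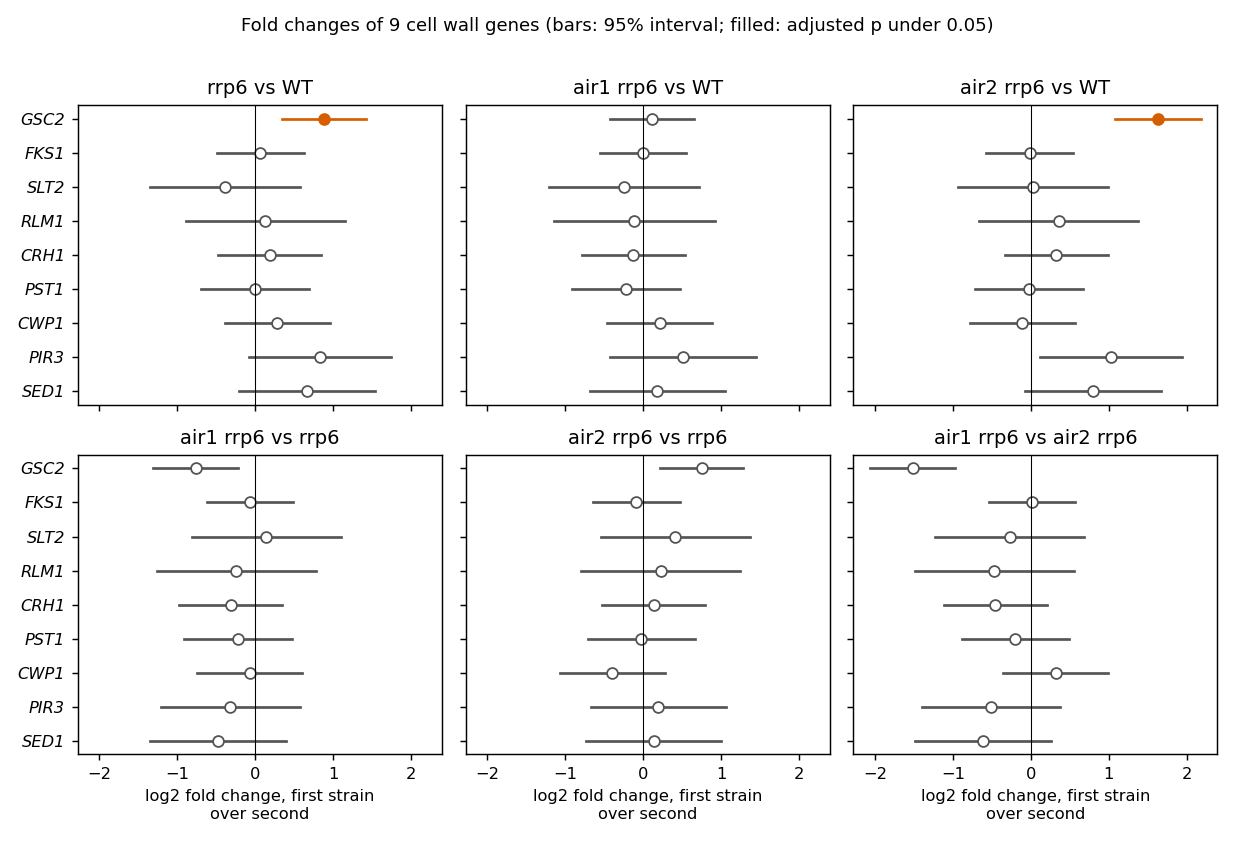
Log2 fold change of each gene in the 6 comparisons, the first strain over the second; bars are 95% intervals of the edgeR fit and filled points have an adjusted p under 0.05. GSC2 is called in rrp6 and air2 rrp6 against WT (0.88 and 1.63), and every interval of the other 8 genes holds 0 except that of PIR3 in air2 rrp6 against WT (0.12 to 1.93), which was not called.

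The median log2 fold change over the 9 members against WT was 0.19 for rrp6, 0.00 for air1 rrp6 and 0.33 for air2 rrp6, beside medians of 0.01, 0.02 and 0.03 over all features. In air1 rrp6 against rrp6 the median of the members was -0.24, with 8 of 9 negative. In air2 rrp6 against rrp6 it was 0.14, with 6 of 9 positive. Over all features the medians in these 2 comparisons were -0.01 and 0.02. Replicate 1 lay above replicate 2 in all 4 strains for 7 of the 9 members, and in 3 of 4 strains for FKS1 and CWP1. Among protein-coding features replicate 1 was the higher one in 49.9 to 52.7%, so the members leaned to replicate 1 more than most genes did. The part of this shared lean in the spread of the members was not tested beyond the replicate block.

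On a per length scale the members kept a wide range of levels within each strain. In WT, SED1 led with 221 CPM per kilobase, followed by CRH1 and FKS1 with 93.4 each, PST1 with 32.6, CWP1 with 32.0, SLT2 with 24.7, RLM1 with 12.1, GSC2 with 5.33 and PIR3 with 1.36. Neighbours in this order from CRH1 to FKS1, and from PST1 to RLM1, did not differ beyond their SDs. In air2 rrp6 GSC2 reached 16.5 CPM per kilobase and stood above RLM1 (15.3 ± 7.6, SD, n = 2), within its spread.

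A wider set of cell wall genes, grouped by role, was read beside the members. Of 119 such genes tested, 6 were higher and 1 lower in air2 rrp6 against WT, 4 were higher and 1 lower in rrp6, and 1 was higher in air1 rrp6. With the replicate block the genes called numbered 11, 8 and 5 in the same order. The shares called higher were 5.04%, 3.36% and 0.84% of the set, beside 1.77%, 1.44% and 1.22% of protein-coding features. Of all features they were 8.75%, 8.80% and 7.64%. The lists were drawn up with earlier results known, so these shares are a description. The median over the 119 genes was 0.10, 0.06 and -0.12 in these comparisons. No gene of the set was called by edgeR between the strains without RRP6, where 4, 2 and 10 had an unadjusted p under 0.05 in air2 rrp6 against rrp6, air1 rrp6 against rrp6, and air1 rrp6 against air2 rrp6, and DESeq2 also called 0.

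Among the sensors and the Rho1 module, 1 of 15 genes was called. Of protein-coding features, 1.44% were called higher in rrp6 and 1.77% in air2 rrp6 against WT. WSC3, which encodes a membrane sensor of wall stress, rose from a mean of 7.13 CPM in WT by 1.96-fold in rrp6 (log2 fold change 0.97, SE 0.24, adjusted p = 0.029 by edgeR), and by 1.81-fold in air2 rrp6 (log2 fold change 0.85, adjusted p = 0.048). The air1 rrp6 libraries also lay above WT, with a log2 fold change of 0.73 and no call (adjusted p = 0.10). The WSC3 calls ended in 8 and 12 of 17 alternatives. Among 11 kinases and phosphatases, MSG5, a phosphatase gene whose product acts on Slt2, rose in air2 rrp6 from 6.68 and 7.35 CPM in WT to 13.2 and 13.5 CPM (log2 fold change 0.92, SE 0.21, adjusted p = 0.022). That call ended in 6 of 17 alternatives, among them leaving out either WT library or either air2 rrp6 library. KDX1, a pseudokinase paralog of SLT2 and a known target of Rlm1, stood at a mean of 2.01 CPM in WT and 3.49 CPM in air2 rrp6 (adjusted p = 0.22). None of 5 transcription factors was called by edgeR, and in air2 rrp6 against WT 0 had an unadjusted p under 0.05.

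Genes of the cell wall stress response gave no call as single genes. Against WT, 1.44%, 1.22% and 1.77% of protein-coding features were called higher in rrp6, air1 rrp6 and air2 rrp6. At such shares a list of 15 genes could hold no call without standing apart from other genes. Of 15 tested, none was called in any of the 6 comparisons by edgeR, and against WT 0, 1 and 1 had an unadjusted p under 0.05 for rrp6, air1 rrp6 and air2 rrp6. Their median log2 fold change was -0.16, -0.22 and 0.15 in those comparisons. PRM5, a membrane protein gene known as a target of Rlm1, stood at 33.9 and 22.9 CPM in WT, 61.3 and 29.9 with RRP6 deleted alone, 36.4 and 31.7 with RRP6 and AIR1 deleted, and 51.0 and 46.8 with RRP6 and AIR2 deleted. The air2 rrp6 libraries lay above WT, yet the log2 fold change of 0.79 was not called (adjusted p = 0.18 by edgeR).

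Wall building genes gave few calls. Of protein-coding features, 1.65% were called lower in rrp6 and 1.89% in air2 rrp6 against WT. In beta-glucan synthesis 1 of 12 genes was called: CWH41, glucosidase I of the endoplasmic reticulum, fell from 50.7 and 52.2 CPM in WT to 29.7 and 32.2 CPM in rrp6 (log2 fold change -0.73, SE 0.17, adjusted p = 0.026) and to 29.3 and 26.2 CPM in air2 rrp6 (-0.89, adjusted p = 0.011). The rrp6 call of CWH41 ended in 8 of 17 alternatives, among them leaving out either WT library or rrp6 replicate 1. With library totals its log2 fold change was -0.13 in rrp6 and 0.018 in air2 rrp6, and leaving out either air2 rrp6 library ended the air2 rrp6 call. FKS3, a further paralog of the synthase genes, had a log2 fold change of -0.10 in air2 rrp6 against WT (adjusted p = 0.92). None of 12 chitin synthesis genes, 15 glucan remodelling genes and 10 daughter separation genes was called by edgeR in any comparison, and in air2 rrp6 against WT 1, 2 and 0 of them had an unadjusted p under 0.05. The paralogs of CRH1 were among them, and UTR2 stood at a mean of 235 CPM in WT and 270 CPM in air2 rrp6, while CRR1 stood at 1.27 and 0.827 CPM.

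Of 28 other wall protein genes, 4 rose in air2 rrp6, 3 in rrp6 and 1 in air1 rrp6 against WT. These were 14.3%, 10.7% and 3.57% of the list. Among all features 8.75%, 8.80% and 7.64% were called higher in the same order, and among protein-coding features 1.77%, 1.44% and 1.22%. TIR4, a wall mannoprotein gene known from cells short of oxygen, rose from 2.33 and 2.19 CPM in WT to 8.37 and 5.90 CPM in air2 rrp6 (log2 fold change 1.67, SE 0.32, adjusted p = 0.0097 by edgeR) and by 1.30 in rrp6 (adjusted p = 0.029). Its neighbour on the chromosome, TIR2, of the same family, rose by 1.92 in rrp6 and 1.58 in air2 rrp6 (adjusted p = 0.014 and 0.031), from 0.724 and 0.905 CPM in WT. FLO1, a flocculin gene, rose by 2.09 for rrp6, 2.17 for air1 rrp6 and 2.37 for air2 rrp6 (adjusted p = 0.032, 0.034 and 0.019), from 0.483 and 1.42 CPM in WT. The size for FLO1 rests on these low WT levels: with 1 library left out at a time it lay between 1.58 and 3.19, 1.58 and 3.28, and 1.85 and 3.45 in the same order. FLO5, named after its values were seen, rose by 1.23 in air2 rrp6 (adjusted p = 0.042). FLO1 and FLO5 are near copies with repeats, so their separate counts are uncertain. Leaving out WT replicate 1 ended the calls of FLO1, FLO5 and TIR2 and the rrp6 call of TIR4, and leaving out WT replicate 2 ended those of TIR2 and TIR4. The paralogs of the members stayed without a call, with log2 fold changes in air2 rrp6 against WT of 0.01 for PIR1, 0.36 for HSP150, 0.06 for CIS3 and -0.01 for CWP2.

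**Figure D4:**
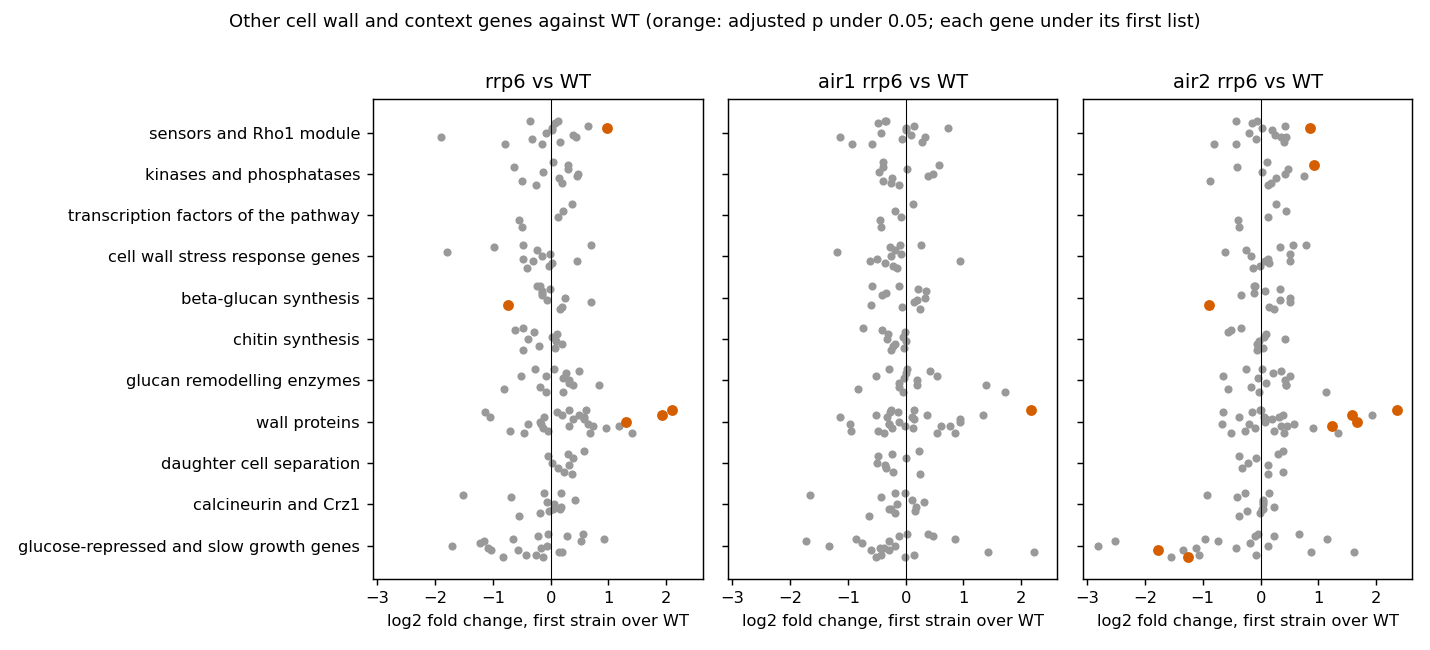
Log2 fold change against WT of the other cell wall genes and of 2 context lists, with 1 point per gene under the first list that holds it; orange points have an adjusted p under 0.05. Called genes are few in each panel: in air2 rrp6, WSC3, MSG5, TIR2, TIR4, FLO1 and FLO5 are higher and CWH41, GPH1 and GSY2 lower.

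Because GSC2 is known to answer to calcium and to glucose, genes of those responses were read as context. None of 14 calcineurin and Crz1 genes was called by edgeR in any comparison. In air2 rrp6 against WT 0 had an unadjusted p under 0.05, and their median log2 fold change was 0.03. There 1.77% of protein-coding features were called higher and 1.89% lower. Of 21 glucose-repressed and slow growth genes, 2 fell in air2 rrp6 against WT and none rose, where 1.54% of all features were called lower. Of the 21, 6 had a positive value and 15 a negative one, and their median was -0.42. Without WT replicate 1 the median was -0.20, with 1 gene called higher and none lower, and without air2 rrp6 replicate 1 none was called. With library totals the median turned to 0.41. GPH1, glycogen phosphorylase, fell from 21.4 and 10.4 CPM to 3.12 and 6.18 CPM (log2 fold change -1.77, adjusted p = 0.024 by edgeR), and GSY2, glycogen synthase, fell by 1.25 on the log2 scale (adjusted p = 0.038). Both calls ended under library totals, under the covariate of ribosomal DNA, and without WT replicate 1 or air2 rrp6 replicate 1.

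The genes most like GSC2 over the 8 libraries were found by the root mean square difference of log2 CPM after each gene was centred on its mean. Of 3408 protein-coding genes with a symbol and a mean of at least 10 CPM, the closest were SWI1 (0.339), RGT1 (0.341), the SNARE gene USE1 (0.405), PRM5 (0.414) and the phospholipase gene PLB3 (0.416), where the median gene had 0.727. RGT1, a transcriptional regulator of glucose transporter genes, stood at 24.6 and 21.8 CPM in WT, 84.7 and 45.2 with RRP6 deleted alone, 38.9 and 25.7 with RRP6 and AIR1 deleted, and 75.5 and 55.7 with RRP6 and AIR2 deleted. SWI1, a subunit of the SWI/SNF chromatin remodelling complex, was 38.8 and 30.1 CPM in WT and 82.3 and 79.7 CPM in air2 rrp6, but its rrp6 libraries, at 87.8 and 67.9 CPM, were as high as those of air2 rrp6. Of the members, PIR3 (0.372, at a level under 10 CPM) and SED1 (0.448) were the nearest to GSC2, and CWP1 (0.745) and FKS1 (0.693) the farthest.

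The authors' deposited table gives a log2 ratio and a p-value for 5 of the comparisons. For GSC2 the authors' deposited table lists 0.61 for rrp6 over WT (p = 0.301), -0.76 for air1 rrp6 over rrp6 (p = 0.0398) and 0.74 for air2 rrp6 over rrp6 (p = 0.044). For air1 over WT the authors' deposited table lists 0.15 (p = 0.622). As headed, this value has the sign of the counts (0.12), but most signs in that column were opposite to the counts. It therefore cannot be read as agreement. Under its heading for air2 over WT the authors' deposited table lists -1.35 (p = 0.000765), a sign opposite to that of the counts. Opposite signs were the rule in both columns against WT for the double mutants: of 413 protein-coding features beyond 1 on the log2 scale in the counts, 99.0% had the opposite sign in the authors' deposited table, as did 97.5% of 326 for air1 over WT, against 1.36% of 441 for rrp6 over WT. The headings of these 2 columns therefore read the wrong way round against the counts. Among the other members only SLT2 had a p under 0.05 there. For SLT2 the authors' deposited table lists -0.93 for rrp6 over WT (p = 0.0472) and, as headed, 0.79 for air1 over WT (p = 0.0264). The counts gave log2 fold changes of -0.39 and -0.24 for SLT2, and neither was called.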

How the data were processed

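Polyadenylated RNA of 4 yeast strains was sequenced on SOLiD with 2 libraries each. The deposited main table holds unscaled expected counts, of which 11.1 to 13.0% per library are not whole. Per the submitters' processing notes, the tools included edgeR 2.2.5, Bowtie 0.12.7 and SAMtools; their roles, the genome build, the annotation and the strand rule are not given in these sources. The authors' own comparisons, 5 in all, came as a deposited log2 ratio with its p-value for each feature, per the file headers. Its rrp6 p column, listed as another kind of value because 1 entry is below 0, was copied only for members.

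Counts were rounded, features kept by filterByExpr of edgeR 4.0.16 (minimum count 10), libraries scaled by TMM, and all 8 libraries fitted in R 4.3.3 by strain with the robust quasi-likelihood test, which pools the spread of the 4 strains. Benjamini-Hochberg adjustment ran over the 7543 features tested. The steps were also tested on simulated counts with known changes, of which the smaller ones were called only in part. Intervals are 95% intervals of the fit. DESeq2 1.42.0 and other settings served as alternatives. Members and lists were chosen with earlier results of these data known. Named list genes are up to 3 per list with the smallest adjusted p among those called, paralogs of members, and the 5 nearest to GSC2. Within each strain the duplicates differed by 66.1 to 346 in chi-square per degree of freedom, so neither library repeats the other. Same-numbered libraries deviated together (correlations of 0.126 to 0.366 over 6 strain pairs), though the labels name no shared batch; the replicate block is printed where a call changes under it. Coordinates and sequences are from the RefSeq R64 assembly, matched by systematic name. Protein sequences were not used here.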

Additional observations from a re-analysis of the deposited data

How the results depend on the processing

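The 6 comparisons of GSC2, of the 9 members and of the 119 other cell wall genes were recomputed under 17 alternatives. Leaving out 1 library at a time, the log2 fold change of GSC2 against WT lay between 0.58 and 1.12 for rrp6, -0.17 and 0.36 for air1 rrp6, and 1.31 and 1.84 for air2 rrp6, and in rrp6 the members called were 0 to 1. In air1 rrp6 against WT, where GSC2 was not called, its sign turned when WT replicate 2 (-0.17) or air1 rrp6 replicate 1 (-0.03) was left out, and under the covariate of ribosomal DNA (-0.023). The other cell wall genes called ran from 0 to 9, 0 to 2 and 0 to 8, so those counts rest on single libraries. With library totals GSC2 in rrp6 was 1.43 and not called, so 0 members were called, while 3 were in air2 rrp6; the other cell wall genes called numbered 5 for air1 rrp6, 11 for air2 rrp6 and 1 between the double mutants. That scaling put the median of all features at 0.64, 0.77 and 0.95 against WT and turned CWH41 in air2 rrp6 to 0.018. Under the covariate of ribosomal DNA GSC2 was 0.74 in rrp6 and 1.42 in air2 rrp6, 0 members were called in both, and the other genes called were 2 and 1. With the 2 strains fitted alone GSC2 in rrp6 was 0.91 and not called (0 members), the other genes called were 0, 0 and 4 for rrp6, air1 rrp6 and air2 rrp6, and GSC2 was called between the double mutants (-1.50, 1 member).

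In the paired fit with the replicate block, 2 members (GSC2 and SED1) were called in air2 rrp6 against WT and 1 (GSC2, -1.52) between the double mutants, and the other genes called were 8, 5 and 11 in the mutants, in the order above. DESeq2 called GSC2 between the double mutants (-1.53, 1 member). The causes of these differences were not tested. Of 816 values of the other 8 members, 728 kept their direction and their side of the threshold, 3 gained a call, all SED1 or PIR3 in air2 rrp6 against WT, and 85 without a call changed sign. The alternative without ribosomal DNA features was chosen after seeing the data.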
